A study of Mus musculus with 2 samples.

Results

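Ebf positive differentiating neurons are described here as 490 of 8814 cells from the mouse retina, 236 of 3620 in the first library and 254 of 5194 in the second. A cell was taken as a member when it held at least 1 UMI (unique molecular identifier, a counted RNA molecule) of 3 or more of the 7 rule genes Ebf3, Ebf1, Lrfn5, Lamp5, Ina, Zfp804a and Slc24a3. At least 1 of Ebf3, Lamp5 and Lrfn5 had to be among them, and fewer than 4 of 11 genes of inhibitory amacrine cells could be present (Gad1, Gad2, Slc32a1, Slc6a9, the 3 genes Tfap2c, Tfap2b and Tfap2a, and C1ql2, C1ql1, Cbln2 and Snhg11). Barcodes with fewer than 500 genes were left out, which removed 1 barcode and 2 barcodes. Because the rule used these measured values, the levels of the 18 genes in the members are a description and support nothing else.

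The cells were dissociated from peripheral retinas of mice at P8, postnatal day 8, from the area where the alphaCre transgene is expressed. The DKO library came from mice of genotype alphaCre, Rbf/f, p107-/-, which the labels call tumor-prone. The DKO_Skp2het library came from mice of genotype alphaCre, Rbf/f, p107-/-, skp2+/-, which the labels call tumor-resistant. Both genotypes thus carry the floxed Rb alleles with the same Cre driver and lack p107, and no library with intact Rb and p107 is analysed here. alphaCre is driven by a Pax6 enhancer active in peripheral retinal progenitors, so cells of other origin in the dissected tissue, such as microglia, keep Rb. The number of animals in each library is not given in the sources used here. With 1 library per genotype there is no test between genotypes, and every interval below is a 95% interval that covers counting error only.

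The libraries held 24405021 UMIs in DKO and 25757410 in DKO_Skp2het, with medians of 4939 and 3874 UMIs per cell. No DKO barcode fell below 3420 UMIs, whereas 1905 of the DKO_Skp2het barcodes did, 109 members among them. Members had a median of 5103.5 UMIs in DKO and 3597 in DKO_Skp2het, and all other cells 4932 and 3897. The median mitochondrial share was 3.74% and 3.79% in members and 3.29% and 3.51% in other cells. A doublet score marked 15 and 25 members. The libraries shared 30 barcodes, and no barcode was a member in both.

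Ebf proteins, also called COE or Olf proteins, are helix-loop-helix transcription factors that bind DNA as dimers and are switched on as neural progenitors leave the cycle and begin to differentiate. In the retina they are known from early amacrine and ganglion cells, and Ebf3 together with the glycine transporter Slc6a9 marks a type of glycinergic amacrine cell. Amacrine cells are the interneurons of the inner retina, which release GABA or glycine, although a group marked by Neurod6 and Ppp1r17 shows neither transmitter. The Rb family, with Rb and p107, holds back E2F factors and thereby entry into the cell cycle, and Skp2 is the subunit of a ubiquitin ligase that marks the cycle inhibitor p27 (Cdkn1b) for destruction.

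Sequence windows around the start sites were read for the rule genes and for the 20 genes highest in members that the rule did not use. The windows run from 250 bases before to 50 bases after each RefSeq start site on GRCm38.p6, and 16 of the 20 genes were found there. They were searched for the Ebf motif TCCCNNGGGA and for the E-box CAGCTG, to which class II helix-loop-helix factors such as Nhlh2 bind. Each motif reads the same on both strands and they share no bases. The following 30-base stretches hold the matches, with the motif in capitals, written 5′ to 3′ on the strand of the gene, and they are shown because these genes carry the differences given below.
Robo3: cccgcccagcTCCCAGGGGAttctggcact
Ina: gacggtggcgcgCAGCTGcggtggcactgc
Lrfn5: aggccgagagcaCAGCTGctactgcttggg
Nhlh2: agaagagccaagaagccacacaggCAGCTG
Cacng3: tcctaggttaccCAGCTGcagagtgattct
Cacna2d3: ggcggggctgggCAGCTGccgcggcaagag
Ptprt: atgctCAGCTGggtggtgtggcgcggggcg
Rab3c: caccgcccagtgCAGCTGgaggggctagcc
The Robo3 stretch lies at chr9:37433211-37433240 on the minus strand, with the first motif base 55 bases before the start site. Ina (chr19:47014534-47014563) and Lrfn5 (chr12:61523006-61523035) lie on the plus strand, with the E-box 135 and 149 bases before their start sites. The Nhlh2 box (chr3:102010165-102010194, plus) begins 45 bases after the start and the Cacng3 box (chr7:122671684-122671713, plus) 48 bases before it. On the minus strand, the box of Cacna2d3 (chr14:29722019-29722048) begins 172 bases, that of Ptprt (chr2:162661368-162661397) 245 bases and that of Rab3c (chr13:110280297-110280326) 108 bases before the start. The Ebf motif was present in none of the 10 windows of the rule genes and in 1 of 17 windows (5.88%) of the other genes, against 297 of all 32851 windows (0.904%). The E-box was present in 2 of 10 windows (20%) and 5 of 17 (29.4%), against 5355 of all 32851 (16.3%). A match is a run of letters in the window and was not tested as a binding site.

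The members made up 6.52% of the DKO cells (exact Clopper-Pearson interval 5.74 to 7.37) and 4.89% of the DKO_Skp2het cells (4.32 to 5.51). The share in DKO_Skp2het was 0.750 times that in DKO (0.632 to 0.891). Detection of a gene moves with depth, and when every cell was first thinned to 2000 UMIs the rule found 105 DKO cells (2.90%, 2.38 to 3.50) and 169 DKO_Skp2het cells (3.25%, 2.79 to 3.77), a ratio of 1.12 (0.883 to 1.43). With barcodes kept only at or above the DKO minimum, 145 of 3289 DKO_Skp2het cells (4.41%) were members and the ratio was 0.676. The order of the libraries in the share of these cells thus depended on how depth was handled.

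**Figure D1:**
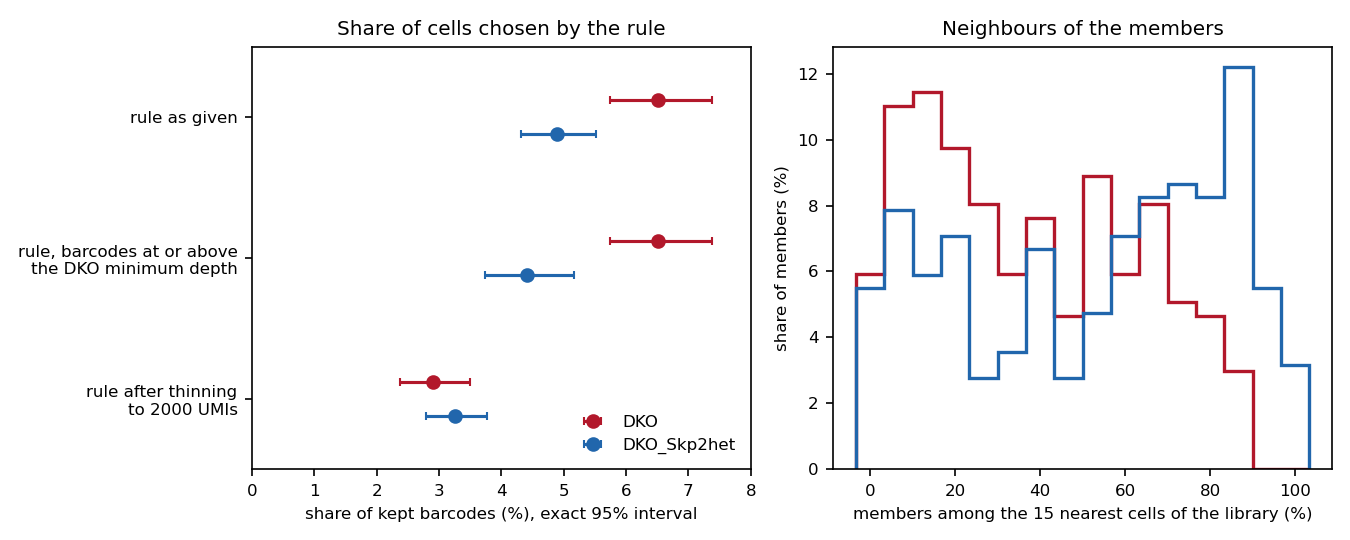
Left, the share of kept barcodes (%) chosen by the rule in each library under each handling of depth, with exact 95% intervals; DKO is above DKO_Skp2het for the rule as given (6.52% and 4.89%) and below it after thinning (2.90% and 3.25%). Right, histogram of the share of members among the 15 nearest cells of each member (%, bins of 1 cell); DKO members have a median of 33.3% and DKO_Skp2het members of 60.0%.

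The threshold of the rule ran through a graded population. Exactly 3 rule genes were present in 92 DKO and 70 DKO_Skp2het members, 4 in 76 and 93, 5 in 56 and 70, 6 in 10 and 21, and all 7 in 2 and 0. Just outside it, 85 and 64 cells held 2 rule genes with a required gene. Another 96 and 68 cells met the positive side of the rule and were removed for holding 4 or more of the inhibitory genes, and 143 and 125 cells held 3 or more rule genes without Ebf3, Lamp5 or Lrfn5. The transcription factor Nhlh2, which took no part in the rule, was at 179 and 288 CPM (UMIs of the gene for every 1000000 UMIs of the cells) just outside, 529 and 781 CPM in members with 3 rule genes, 907 and 1145 with 4, and 1201 and 1356 with 5 to 7. Otx2, a factor of photoreceptor and bipolar precursors, ran the other way, from 1015 and 663 CPM just outside to 282 and 131 CPM in members with 5 to 7 rule genes.

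To see whether members also lay together in expression, the 15 nearest cells of each cell were found within its library from 2000 variable genes, with the 18 genes of the rule left out. Proliferation genes were not left out. A median of 33.3% of the neighbours of DKO members and 60.0% of those of DKO_Skp2het members were members, and the median was 0% in both libraries for other cells. In DKO 127 members (53.8%) and in DKO_Skp2het 180 members (70.9%) had 5 or more member neighbours, while 14 in each library had none. Inhibitory cells, those with 4 or more of the 11 inhibitory genes, filled a median of 20% and 13.3% of the neighbour places of members. Cells with both Igfbpl1 and Nhlh2 that were neither members nor inhibitory filled 13.3% and 6.67%. The label of differentiating neurons did not describe all members equally: the 109 DKO and 74 DKO_Skp2het members with fewer than 5 member neighbours held Otx2 at 786 and 439 CPM, against 187 and 80.2 CPM in the others, and 64.2% and 40.5% of them carried proliferation transcripts by the count given further on.

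Of the rule genes, Ebf1 (chr11:44617317-45008091, plus strand) and Ebf3 (chr7:137193673-137314445, minus strand; both GRCm38, GENCODE M21) encode the name-giving factors. Ebf1 was present in 207 of 236 DKO members (87.7%) and 217 of 254 DKO_Skp2het members (85.4%), and Ebf3 in 191 (80.9%) and 200 (78.7%). Both were present together in 175 and 176 members, and 13 members in each library had neither. Ebf1 stood at 640 CPM in DKO members and 826 CPM in DKO_Skp2het members, against 127 and 78.7 CPM in all other cells, which is 5.05-fold (4.71 to 5.41) and 10.5-fold (9.72 to 11.3). Ebf3 stood at 222 and 292 CPM against 16.2 and 9.71 CPM, 13.7-fold (11.9 to 15.9) and 30.1-fold (25.5 to 35.6). After thinning to 2000 UMIs Ebf1 was present in 61.9% and 65.7% of members and in 41.8% and 50.0% of the Igfbpl1 Nhlh2 cells. Ebf3 was present in 2.11% and 2.87% of the latter. Ebf3 was a required gene of the rule and Ebf1 was not, and the Igfbpl1 Nhlh2 cells exclude members. The contrast between the 2 genes there thus follows in part from the rule.

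Lrfn5, a leucine-rich repeat adhesion protein of synapses, was the rule gene with the highest fold. It stood at 115 and 179 CPM in members (209 and 225 UMIs) against 4.12 and 3.10 CPM elsewhere, 27.8-fold (21.7 to 35.9) and 57.6-fold (44.2 to 75.7). Lamp5, a lysosome-associated membrane protein found in some interneurons, was present in the fewest members, 36 of DKO and 41 of DKO_Skp2het, at 57.6 and 135 CPM. Ina, which encodes the neurofilament protein internexin, was present in 183 and 211 members at 214 and 339 CPM. Zfp804a, a zinc finger gene, was present in 150 and 189 at 170 and 325 CPM, and Slc24a3, a sodium, potassium and calcium exchanger, in 64 and 79 at 49.3 and 81.0 CPM. As a background of free RNA, microglia (36 and 45 cells with 4 or more microglia markers, medians of 8978.5 and 6918 UMIs) held Ebf1 in 2.78% and 8.89% of cells and Lrfn5 in 0% and 2.22%. Lrfn5 in 0 of 36 microglia allows a share of up to 8.33%, taken as 3 cells of the 36. The 2.22% in DKO_Skp2het was 1 UMI. Members were not removed from the microglia, and 91 of the 101 microglia marker UMIs of DKO_Skp2het members sat in 1 cell, so a member may be among them.

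Among the 11 inhibitory genes, which the rule kept below 4 per cell, some were near 0 in members and others were higher than in other cells. Gad1, a GABA-synthesizing enzyme, had no UMI in the members of either library, at least 10.3-fold lower than the 16.9 CPM of other DKO cells and at least 3.89-fold lower than the 9.27 CPM of other DKO_Skp2het cells, at a floor of 3 UMIs over the members of a library. C1ql2, a secreted synaptic protein, had 0 and 1 UMI. Gad2, the other GABA-synthesizing enzyme, stood at 153 and 137 CPM in members against 87.7 and 73.1 CPM in other cells, and Tfap2c, an amacrine transcription factor, at 122 and 140 against 49.4 and 37.6 CPM. The vesicular transporter for GABA and glycine, Slc32a1, stood at 25.8 and 46.9 CPM against 24.2 and 18.7, and Slc6a9 at 51.5 and 63.5 CPM against 21.8 and 16.7. In all, 27 and 41 members held none of the 11 genes and 87 and 61 held 3.

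**Figure D2:**
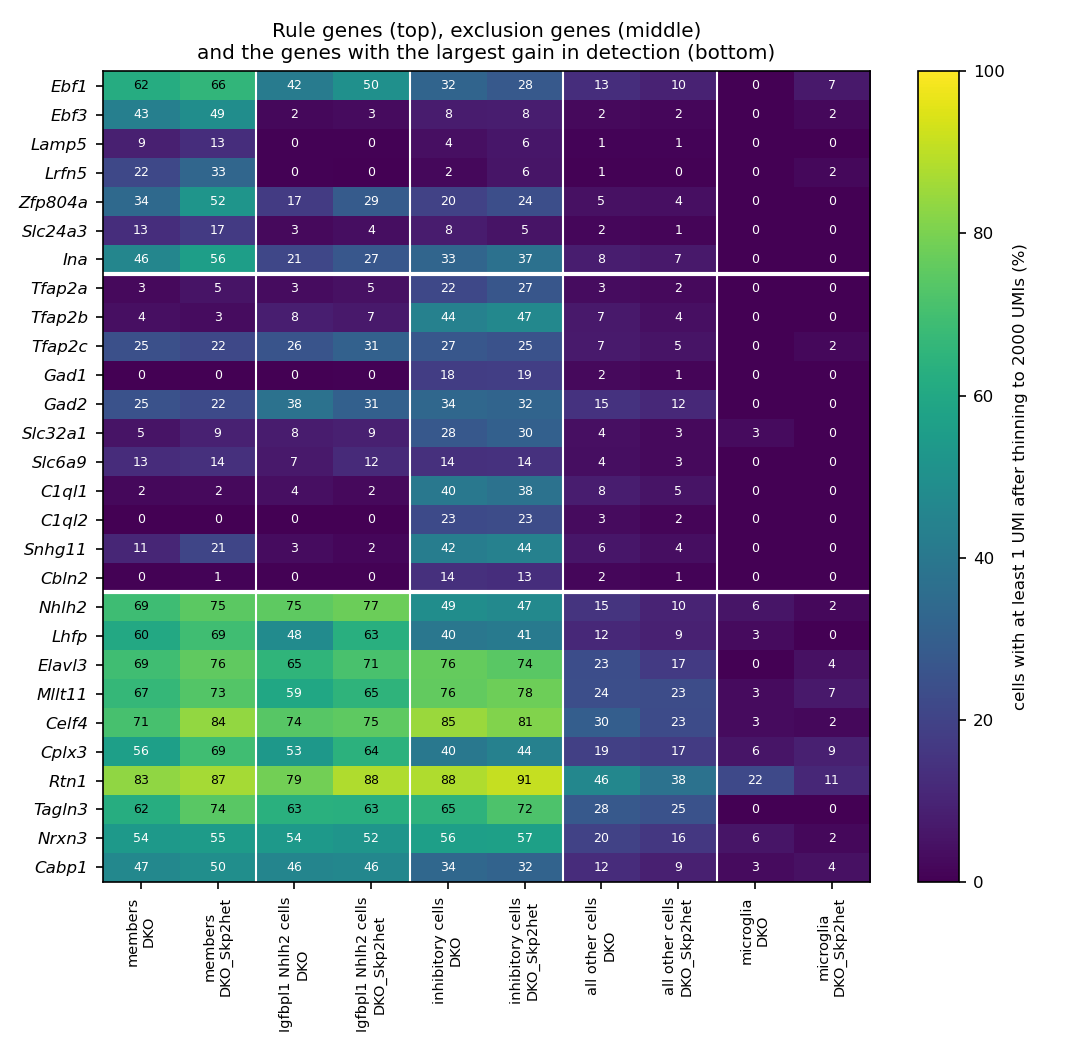
Share of cells (%) with at least 1 UMI after thinning each cell to 2000 UMIs, for the 7 rule genes, the 11 inhibitory genes and the 10 genes with the largest gain in detection in members (rows), in 5 kinds of cell and both libraries (columns). Ebf3 is seen in 43% and 49% of members against 2% and 2% of all other cells and Lrfn5 in 22% and 33% against 1% and 0%, Ebf1 also in Igfbpl1 Nhlh2 cells (42% and 50%), and Nhlh2 in 69% and 75% of members against 15% and 10% of all other cells.

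Outside the rule, the genes higher in members than in all other cells included factors of early neurons and of amacrine development, and the genes lower in them were largely those of glia. Among genes with 50 or more UMIs in members, or with a level elsewhere that would give as many in members, 137 of 8057 genes (1.7%) were more than 2-fold higher in members in both libraries and 160 (1.99%) more than 2-fold lower, on a scale of log2(CPM + 5). This choice of cells on 7 genes makes correlated genes differ as well, so the folds are a description of the chosen cells. Nhlh2 (chr3:102010076-102015492, plus strand), a basic helix-loop-helix factor of young neurons, led the higher genes with 800 CPM in DKO members and 1107 CPM in DKO_Skp2het members (1459 and 1394 UMIs), against 174 and 124 CPM in other cells. That is 4.60-fold (4.33 to 4.89) and 8.94-fold (8.39 to 9.53). It also had the largest gain in thinned detection over all other cells, 69.1% and 74.8% in members against 15.0% and 10.1%, but was as frequent in the Igfbpl1 Nhlh2 cells, which it helped to choose (75.1% and 77.5%).

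Transcription factors of amacrine cells were among the leading genes. Neurod6, a factor of the amacrine cells without GABA or glycine, stood at 34.5 and 32.6 CPM in members against 3.85 and 3.47 CPM, a log2 difference of 2.16 in DKO and 2.15 in DKO_Skp2het. Prdm13, a factor that promotes inhibitory amacrine fates, stood at 164 and 239 CPM against 51.9 and 35.2 CPM (log2 differences 1.57 and 2.60). Scrt2, a zinc finger factor of newborn neurons, was higher by 1.56 and 2.25. Against inhibitory cells Neurod6 differed by 1.31 and 0.98, Prdm13 by 0.20 and 0.81 and Scrt2 by 0.03 and 0.29. Against Igfbpl1 Nhlh2 cells the differences were 1.24 and 0.94 for Neurod6, 0.09 and 0.32 for Prdm13 and 0.34 and 0.13 for Scrt2. Of the 18 amacrine transcription factors with 20 or more UMIs by the same filter, 3 were more than 2-fold higher in both libraries (Neurod6, Prdm13 and Neurod2) and none lower, beside 1.36% higher and 1.79% lower of all 10757 genes at that minimum. Without regard to fold, 10 of the 18 were above 0 in both libraries and 8 were below 0 in both. The median of the list was 0.21 and 0.33, against -0.02 and -0.03 over all genes, and Pax6, the factor that amacrine cells keep from the progenitor stage, was higher by 0.81 and 1.30. Against inhibitory cells the list's median was -0.07 and -0.44, and against Igfbpl1 Nhlh2 cells -0.05 and -0.22.

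Surface and axon genes came next. Nrp2, a receptor for semaphorins, stood at 48.2 and 80.2 CPM in members against 7.26 and 5.55 CPM, log2 differences of 2.12 and 3.01. Robo3 (chr9:37415669-37433246, minus strand), a receptor of the Robo family that governs axon crossing, stood at 89.4 and 88.2 CPM against 21.6 and 20.7 CPM, 1.83 and 1.86 on the log2 scale. Those were the members of the axon guidance and adhesion list past 2-fold in both libraries, 2 of 29, and the list's median was 0.07 and 0.35. Ptprt, a receptor phosphatase, stood at 49.3 and 65.1 CPM against 9.48 and 7.43 CPM. Lgr5, a receptor that strengthens Wnt signalling and is known from amacrine cells, was higher by 1.88 and 2.74.

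Of 26 ion channel and receptor genes outside the rule, 7 were more than 2-fold higher in both libraries and 1 lower, with a median of 0.69 and 1.01. Glra2, a subunit of the glycine receptor, stood at 109 and 153 CPM against 25.4 and 21.4 CPM in other cells (log2 differences 1.91 and 2.58). Glutamate receptor subunits were among the 7, with Grik2 at 1.58 and 2.48, Grin2b at 1.27 and 1.69 and Gria2 at 1.07 and 1.63, and outside the list the calcium channel subunits Cacna2d3 (1.76 and 2.25) and Cacng3 (1.51 and 2.12) were higher. Cacna2d2, another subunit of calcium channels, was lower by the same measure in both libraries, -1.08 and -1.08. Against inhibitory cells the median of the 26 genes was -0.32 and -0.03, Cacng3 differed by -0.24 and -0.31 and Cacna2d3 by 0.80 and 0.56. Against Igfbpl1 Nhlh2 cells the median was 0.41 and 0.44.

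Genes of the synapse and the cytoskeleton were partly raised against all other cells, while their list medians were below 0 against inhibitory cells. Of 17 synaptic vesicle genes, 4 were more than 2-fold higher in both libraries, among them Rab3c (1.47 and 2.08), Cplx3 (1.37 and 2.05) and Syt4 (1.30 and 1.89), and the list's median was 0.45 and 1.37. Of 12 leucine-rich repeat and neurexin family genes outside the rule 2 passed, Nrxn3 among them (1.03 and 1.61). Of 19 cytoskeleton genes outside the rule, 2 passed, Tubb2a (1.22 and 1.66) and Crmp1 (1.16 and 1.49). Against inhibitory cells the medians were -0.61 and -0.30 for synaptic vesicle, -0.27 and -0.22 for leucine-rich repeat and neurexin and -0.61 and -0.72 for cytoskeleton genes. Against Igfbpl1 Nhlh2 cells they were, in the same order, 0.02 and 0.43, -0.11 and 0.12, and 0.03 and -0.17. Of 12 immature neuron factors outside the rule 7 passed, with a median of 1.06 and 1.30. Beside Nhlh2 they were Myt1l (1.33 and 1.68), Myt1 (1.17 and 1.33), Elavl3 (1.14 and 2.04), Sox11 (1.04 and 1.28), Igfbpl1 (1.14 and 1.65) and St18. Insm1, a factor of the last progenitor divisions, did not pass at 0.35 and -0.08. Members shared the level of these 12 genes with the nearest populations, with medians of -0.08 and -0.03 against inhibitory cells and -0.21 and -0.38 against Igfbpl1 Nhlh2 cells.

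**Figure D3:**
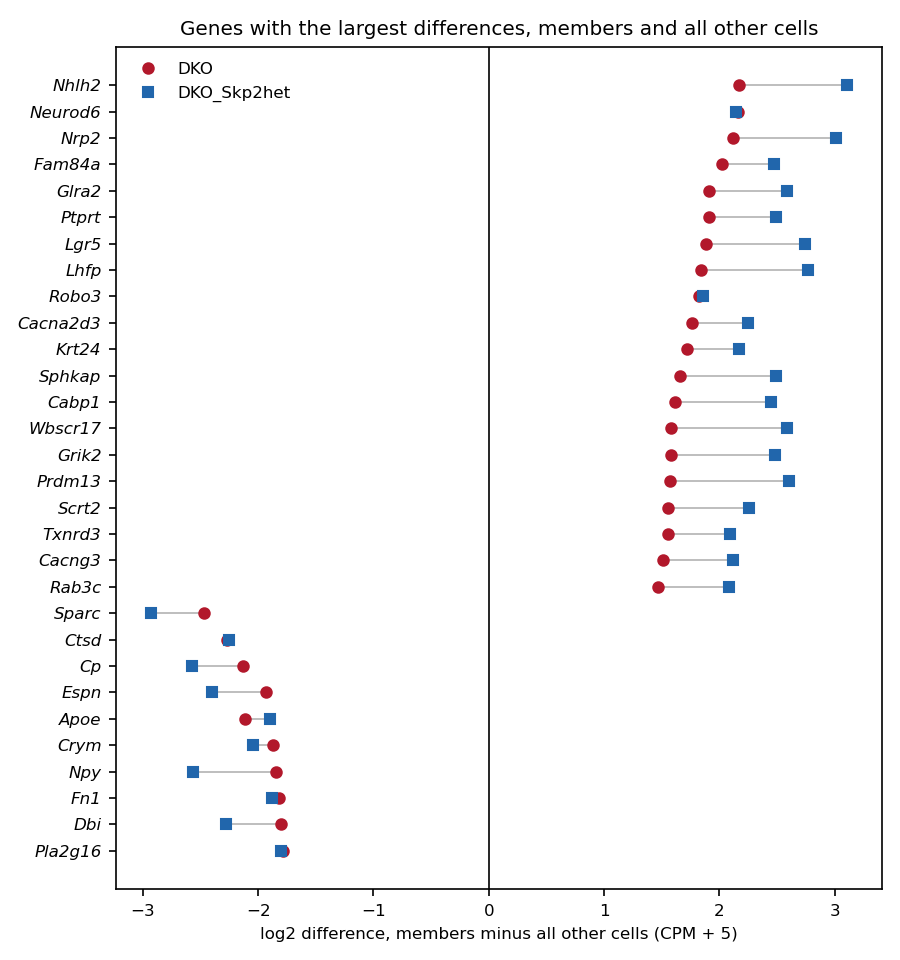
Log2 difference (CPM + 5) between members and all other cells for the 20 highest and 10 lowest named genes outside the rule, DKO as circles and DKO_Skp2het as squares. All 30 genes lie on the same side in both libraries, from Nhlh2 at 2.17 and 3.11 to Sparc at -2.47 and -2.93.

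Genes of glia and microglia were lower in members, and the lowest, Sparc, differed by more than Nhlh2 did in DKO (-2.47 against 2.17). Sparc, a matrix protein made by glia, stood at 26.3 and 24.6 CPM in members against 168 and 221 CPM, and Apoe, a lipid carrier of glia and microglia, at 192 and 285 against 850 and 1077 CPM. Of 11 Müller glia markers 5 were more than 2-fold lower in both libraries (median -1.0 and -1.56), as were all 8 microglia markers counted, 3 of 5 astrocyte markers and 4 of 14 bipolar markers, and none of these lists had a member higher past that fold. Genes that respond to tissue dissociation were lower too, 5 of 13, with a median of -0.91 and -1.03. Npy, a neuropeptide of amacrine cells, was lower by -1.84 and -2.56. Other amacrine genes thus went both ways, since Calb2, the calcium-binding protein calretinin, was higher by 1.31 and 1.86 and Ppp1r17 by 1.21 and 1.24.

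Markers of other cell types were counted per cell after thinning to 2000 UMIs. At least 3 amacrine transcription factors were present in 80.5% of DKO and 81.5% of DKO_Skp2het members, against 58.9% and 51.6% of all other cells and 5.56% and 4.44% of microglia. The nearest populations had like shares, with 82.0% and 80.0% of inhibitory cells and 78.5% and 88.5% of Igfbpl1 Nhlh2 cells. At least 3 Müller glia markers were present in 9.75% and 7.09% of members against 40.5% and 43.0% of other cells, and at least 3 rod markers in 4.66% and 3.54% of members. For the Müller glia markers, inhibitory cells stood at 4.51% and 5.25% and Igfbpl1 Nhlh2 cells at 9.28% and 6.15%. Ganglion cell markers reached that number in 1 member of each library. In DKO_Skp2het 136 of the 286 ganglion marker UMIs sat in a member with 13210 UMIs and 6 rule genes, which held 17 of the 19 Pou4f1 UMIs, all 12 Slc17a6 UMIs and 28 of the 29 Sncg UMIs of the members, all 3 genes known from ganglion cells. The ganglion factor Pou4f2 had 0 UMIs in that cell.

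Against the inhibitory cells, only 11 of 8027 genes (0.137%) were more than 2-fold higher in members in both libraries and 185 (2.3%) were lower. Beside Ebf3 and Lrfn5, the higher genes included Dlk1, a Notch ligand relative (1.67 and 2.19), Ppp1r17 (1.56 and 1.63), Nrp2 (1.35 and 1.91) and Robo3 (1.41 and 1.13). Lower in members were the peptide gene Cartpt (-5.47 and -4.35), the amacrine factor Meis2 (-2.59 and -2.17) and the microtubule regulator Stmn2 of growing axons (-1.75 and -1.92). Inhibitory cells were chosen on 11 such genes and were deeper, with medians of 6902 and 6008 UMIs. Against the 237 and 244 Igfbpl1 Nhlh2 cells more genes were higher, 35 of 7752 (0.451%), and fewer lower, 3 (0.0387%). The lower genes were Igfbpl1, which chose those cells, and Pax2 and Ptf1a. Ptf1a is a factor of amacrine and horizontal cell precursors. Among the higher genes outside the rule were Syt4, a synaptotagmin (1.90 and 2.13), Crabp1, a retinoic acid binding protein (1.99 and 1.79), the potassium channel gene Kcnh7 (1.44 and 2.57) and Nrp2 (1.45 and 2.35).

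The members differed among themselves by the required gene they held. Ebf3 alone of the 3 was present in 109 DKO and 99 DKO_Skp2het members, Ebf3 with Lrfn5 in 66 and 89, Lrfn5 alone in 25 and 25 and Lamp5 alone in 15 and 25. Members with Ebf3 and Lrfn5 had a median of 60.0% and 73.3% member neighbours, those with Ebf3 alone 20% and 40.0%. Robo3 was highest in the 9 and 9 members with Ebf3 and Lamp5, which held 30 and 26 of its UMIs (377 and 576 CPM). Over all members with Lamp5 it had 45 and 50 UMIs (180 and 287 CPM), and over the 200 and 213 members without Lamp5 118 and 61 (75.0 and 56.2 CPM). The 5 DKO members with Lamp5 and Lrfn5 had 1 Robo3 UMI and the 7 with all 3 required genes had 3. In members with Ebf3 and Lrfn5, Robo3 had only 9 and 13 UMIs (24.5 and 30.4 CPM), whereas Neurod6 had 27 and 24 UMIs (73.5 and 56.1 CPM) there, against 17.9 and 27.5 CPM in members with Ebf3 alone. Slc6a9 stood at 104 and 149 CPM in members with Lamp5 and at 43.2 and 49.8 CPM in those without, and Tfap2c ran the other way at 68.0 and 51.6 against 131 and 154 CPM. Members with Lamp5 were not alike in Slc6a9, which stood at 153 and 194.5 CPM in those with Lamp5 alone. In those with Ebf3 and Lamp5 it stood at 12.6 and 66.4 CPM (1 and 3 UMIs). These subsets were looked at after the values were seen and hold few UMIs per gene.

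Fewer members than other cells carried transcripts of proliferation. Each cell was thinned to 1500 UMIs, and a cell counted as proliferation-positive when it held 3 or more UMIs of 26 core genes of replication and mitosis. By this count 90 of 236 DKO members (38.1%, 31.9 to 44.7) and 49 of 254 DKO_Skp2het members (19.3%, 14.6 to 24.7) were positive, against 2160 of 3384 (63.8%) and 2567 of 4940 (52.0%) other cells. Without thinning the shares were 54.7% and 30.3% in members and 82.8% and 70.9% in other cells. The member share was 0.597 times (0.507 to 0.704) that of other cells in DKO and 0.371 times (0.288 to 0.478) in DKO_Skp2het. Inhibitory cells stood at 30.3% and 18.7% and Igfbpl1 Nhlh2 cells at 38.0% and 22.5%, and the members' ratios to the latter were 1.00 (0.798 to 1.26) and 0.856 (0.608 to 1.21). Microglia, a measure of free RNA and of their own division, stood at 13.9% (5 of 36) and 6.67% (3 of 45), and the part of free RNA in the members' shares was not tested.

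Proliferation-positive members had fewer member neighbours and more UMIs than the other members. They had a median of 13.3% and 20% member neighbours and 8176 and 6940 UMIs, while the other members had 46.7% and 66.7% and 4364.5 and 3381 UMIs. The positive share was 45.7% and 27.1% in members with 3 rule genes, 40.8% and 18.3% with 4 and 25.0% and 14.3% with 5 to 7, and it was 71.8% and 42.2% just outside the rule. Among members with 5 or more member neighbours it was 15.7% and 10.6%. Proliferation genes were not left out when neighbours were found, so they could place positive cells beside each other. Their part in these neighbour values was not tested. In the thinned counts no core UMI was seen in 95 (40.3%) and 133 (52.4%) members, called members with no core UMI below. Without thinning these members still held core genes, at 390 CPM in DKO and 176 CPM in DKO_Skp2het. That is a ratio of 0.451 (0.349 to 0.579), so proliferation transcripts were neither absent nor equal between the libraries there. In the positive members, UMIs of 30 S phase genes were 0.474 (0.424 to 0.530) and 0.450 (0.384 to 0.527) per core UMI.

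**Figure D4:**
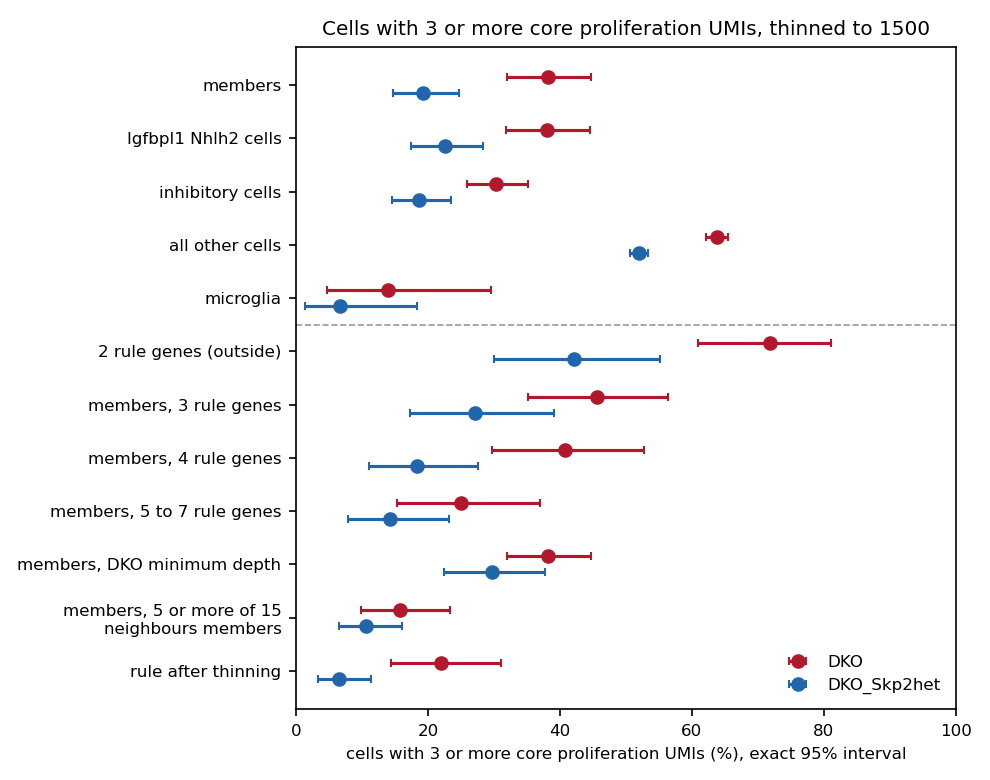
Share of cells (%) with 3 or more UMIs of 26 core proliferation genes after thinning to 1500 UMIs, with exact 95% intervals, for the members and the compared populations (above the dashed line) and for subsets of the members and the cells just outside the rule (below). In members DKO lies at 38.1% and DKO_Skp2het at 19.3%, and among those with 5 or more member neighbours the values are 15.7% and 10.6% with overlapping intervals.

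Between the libraries, the positive share of members in DKO_Skp2het was 0.506 times that in DKO (0.375 to 0.682), and that of other cells 0.814 times (0.785 to 0.845). In members at or above the DKO minimum depth the ratio was 0.778 (38.1% and 29.7%; 0.577 to 1.05), and in members with 5 or more member neighbours, a subset chosen after seeing the data, it was 0.670 (0.373 to 1.20). With the rule applied after thinning it was 0.297 (21.9% and 6.51%). The direction was the same in each, and the size moved with which cells counted as members.

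Genes between the libraries were compared on summed UMIs of the members. Of 4952 genes with 100 or more UMIs in members, 167 (3.37%) were more than 1.5-fold higher in DKO_Skp2het and 195 (3.94%) more than 1.5-fold lower, while the same genes in other cells gave 16 (0.323%) and 9 (0.182%). Members hold far fewer UMIs than other cells, so their ratios scatter more by counting alone.

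Highest in DKO_Skp2het members was Cwc22, a splicing factor, at 15.9 CPM in DKO and 105 CPM in DKO_Skp2het, a ratio of 6.59 (4.38 to 10.2), and it was 4.62-fold higher in other cells too. Prox1os, a transcript antisense to Prox1 whose reads cannot be told from those of its partner where counting ignores strand, stood at 25.2 and 85.0 CPM and was higher in other cells as well (log2 differences 1.57 and 1.13). Others on this list were Pde10a, a cyclic nucleotide phosphodiesterase, at 24.1 and 69.1 CPM, Nap1l5, an imprinted gene of the nucleosome assembly family, at 19.2 and 53.2 CPM, and Dlg2, a scaffold protein of synapses, at 54.8 and 125 CPM. In other cells these 3 genes differed by 0.02, -0.31 and -0.04 on the log2 scale, and in Igfbpl1 Nhlh2 cells by 0.98, 0.56 and 0.02. Elmo1, an adaptor that activates Rac, differed by 1.21 in members and Cnga1, the rod channel gene, by 1.19. Lamp5 and Snhg11, both used by the rule, were also on this list, with Lamp5 at 1.16 in members and 0.00 in other cells.

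A few cells decided some of these values. Snhg11 was 3.37-fold higher in DKO_Skp2het members (2.63 to 4.36), but 84 of its 212 UMIs there came from a single member, and without the cell with most UMIs in each library the ratio was 2.17 (1.64 to 2.89). Rod markers as a whole, 9 of 10 above 1.5-fold, were 1.77-fold higher in sum and 1.21-fold (1.11 to 1.33) without the cell with most of them. With the rule applied after thinning, the median of the rod list was -0.11. Lamp5 (2.35 with and 2.38 without) and Dlg2 (2.29 and 2.30) did not rest on 1 cell. Lamp5 is a required gene of the rule, however, and was seen in only 36 DKO and 41 DKO_Skp2het members. Its ratio was 1.91 (1.46 to 2.51) in members with 5 or more member neighbours and 0.541 (0.179 to 1.37) in those with fewer. Leaving out the top cell was chosen after seeing the data.

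Lower in DKO_Skp2het members were genes of progenitors and of replication. Otx2 stood at 576 CPM in DKO and 251 CPM in DKO_Skp2het members, a ratio of 0.436 (0.383 to 0.494), and differed by -1.18 on the log2 scale. In all other cells it differed by -0.23, in inhibitory cells by -1.0 and in Igfbpl1 Nhlh2 cells by -0.83, so the nearest populations moved the same way. Foxn4, a factor of amacrine and horizontal cell progenitors, stood at 58.1 and 19.1 CPM, Hes1, a Notch target that keeps progenitors undifferentiated, at 132 and 51.6 CPM, and Fabp7, a fatty acid binding protein of progenitors and glia, at 231 and 88.9 CPM. The histone genes Hist1h2ap (338 and 110 CPM) and Hist1h2ae were lower with them, as was Pkib, an inhibitor of protein kinase A, at 53.2 and 16.7 CPM. Foxn4 differed by -1.39 in members, -1.59 in inhibitory and -0.54 in Igfbpl1 Nhlh2 cells, and Fabp7 by -1.33, -0.88 and -1.03. Histone genes of this family are close copies, so the counting may split their reads. In members with no core UMI the direction turned for Pkib (1.18), Foxn4 (0.46), Fabp7 (0.085) and Otx2 (0.18 on the log2 scale). Foxn4 stood there at 0 CPM in DKO and 1.87 CPM in DKO_Skp2het, so its turn rests on very few UMIs. The Otx2 ratio there was 1.14 (0.735 to 1.79), an interval that includes 1. In other cells Hes1 was slightly higher in DKO_Skp2het, by 0.13 (Igfbpl1 Nhlh2 cells -0.95), and Hist1h2ap lower by -1.06.

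Gene lists showed the same division. Of 26 core proliferation genes, 18 were more than 1.5-fold lower in DKO_Skp2het members, with a median log2 difference of -0.65, beside 6.14% higher and 5.26% lower of all 10172 genes with 20 or more UMIs. Of 12 neurogenic progenitor genes 7 were lower (median -0.62), and of 30 S phase genes 6 (median -0.42). Without the rule genes in them, of 26 ion channel and receptor genes 9 were higher (median 0.46) and of 12 leucine-rich repeat and neurexin genes 4 (0.32). Of 17 synaptic vesicle genes 7 were higher and 1 lower (0.49). In other cells the medians were -0.19 for core proliferation, 0.17 for neurogenic, 0.13 for S phase, -0.11 for ion channel, -0.21 for leucine-rich repeat and -0.14 for synaptic vesicle genes, and over all genes the medians were 0.03 in members and 0.01 in other cells. No apoptosis gene of 13 passed 1.5-fold in members (median -0.07).

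Some of these lists differed with the makeup of the members, here with the rule genes included. Beside the lower proliferation-positive share and the higher share of member neighbours in DKO_Skp2het, members with no core UMI gave a median of -0.03 for neurogenic genes, 0.21 for synaptic vesicle genes and 0.40 for ion channel and receptor genes. Leucine-rich repeat and neurexin genes stayed at 0.31 there, and S phase genes were at -0.57. The summed synaptic vesicle CPM in DKO_Skp2het was 1.16 times that in DKO (1.09 to 1.24) within these members, and neurogenic genes were at 0.904 times (0.772 to 1.06). Members with 5 or more member neighbours gave medians of -0.21, 0.17 and 0.19 for the same lists. Otx2 was at 1.14 times (0.735 to 1.79) in members with no core UMI and at 0.430 times in members with 5 or more member neighbours. The part of makeup, depth and genotype in these differences was not tested and, with 1 library each, genotype and library cannot be told apart.

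**Figure D5:**
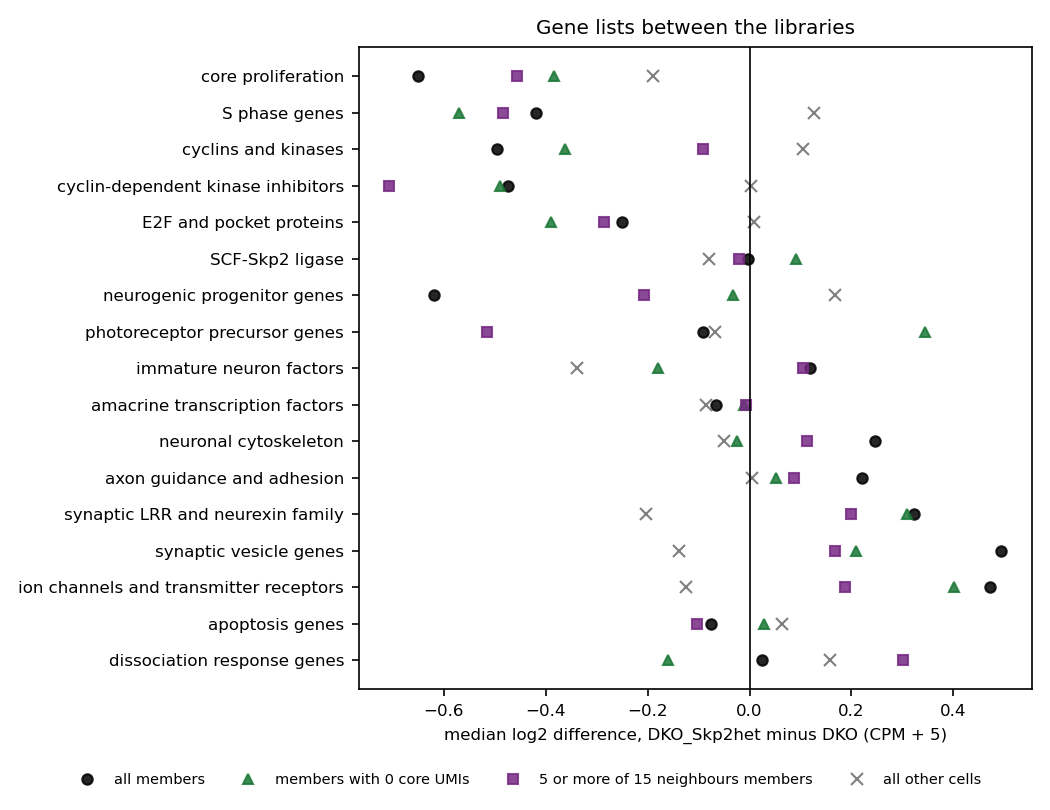
Median log2 difference (CPM + 5) between DKO_Skp2het and DKO for 17 gene lists. Circles are all members and triangles members with no core proliferation UMI after thinning. Squares are members with 5 or more member neighbours among 15, and crosses all other cells. Kinase inhibitors lie below 0 in the 3 sets of members and at 0.00 in other cells, and neurogenic genes lie at -0.62 in all members and at -0.03 in those with no core UMI.

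The targeted genes were read in every library. Skp2 stood at 74.6 CPM in DKO members (136 UMIs) and 46.1 CPM in DKO_Skp2het members (58 UMIs), a ratio of 0.618 (0.446 to 0.846), and at 80.9 and 57.6 CPM in other cells, 0.712 (0.664 to 0.764). Within proliferation-positive members the ratio was 0.517 (0.314 to 0.816), and in members with no core UMI it was 1.32 (0.674 to 2.63), an interval that includes 1. With the rule applied after thinning, Skp2 differed by 0.54 on the log2 scale, the other way. Rb1 stood at 19.7 and 21.4 CPM in members (36 and 27 UMIs) and Rbl1, which encodes p107, at 39.5 and 43.7 CPM. Since both libraries carry the same Rb and p107 alleles and the reads come from the 3′ ends of transcripts, these reads do not check the deletions.

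Genes of the Cip/Kip inhibitors, which hold back cyclin-dependent kinases and include the target of Skp2, did not all differ alike between the libraries. Cdkn1a, which encodes p21, stood at 630 CPM in DKO and 299 CPM in DKO_Skp2het members, a ratio of 0.475 (0.422 to 0.534), or -1.06 on the log2 scale. It differed by 0.00 in all other cells, by 0.07 in inhibitory cells and by -0.63 in Igfbpl1 Nhlh2 cells. Within subsets of members it was at 0.761 (0.671 to 0.860) in proliferation-positive members, 0.382 (0.216 to 0.652) in those with no core UMI and 0.219 (0.147 to 0.318) in those with 5 or more member neighbours. With the rule applied after thinning the ratio was 0.791 (0.532 to 1.17), an interval that includes 1. Cdkn1c, which encodes p57, stood at 166 and 103 CPM, 0.624 (0.504 to 0.768), and Cdkn1b, which encodes p27, at 59.8 and 46.9 CPM, 0.784 (0.561 to 1.09), an interval that includes 1. Of the 7 kinase inhibitor genes counted, 3 were more than 1.5-fold lower, with a median of -0.47 in members and 0.00 in other cells. Transcript counts say nothing of the level of the p27 protein.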

How the data were processed

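Retinal cells of 2 genotypes were measured by droplet-based 3′ single-cell RNA sequencing, 1 library each. For every gene in every barcode the authors deposited a raw count of UMIs, made with Cell Ranger 2.2.0 on mm10, per the submitters' processing notes, and the 2 tables hold 27998 gene identifiers. Samples were grouped by the genotype in the labels. The members and the 32 gene lists were chosen with earlier results of these data known.

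Counts were summed over cells of a kind and library and given as CPM, or as log2(CPM + 5). Shares have exact Clopper-Pearson intervals, ratios of shares Katz intervals and ratios of CPM exact conditional binomial intervals. Named genes were the 18 of the rule, the 20 highest and 10 lowest outside it against other cells, ranked by the smaller of the libraries' log2 differences, and the 10 highest and 10 lowest between libraries, all at 100 UMIs or more in members (for lower genes, expected there) and without clone names. To these came the 5 genes per direction whose difference between libraries was farthest from that in other cells, up to 4 genes of each list or more where all that passed are given, the targeted genes and kinase inhibitors, and the 10 genes with the largest gain in thinned detection in members. Genes named against inhibitory and Igfbpl1 Nhlh2 cells and in subsets of the members were chosen after their values were seen. Some genes that meet these rules are not reported here. Neighbours came from 30 components within a library. Doublets were scored against 2 simulated doublets per cell, at 0.8% per 1000 barcodes, and were left in. Alternatives covered depth, doublets, the rule, the pseudocount, the filter on low counts and subsets of the members. The scripts were tested on simulated data. Computation used scipy 1.17.1 and numpy 2.4.6 for intervals, scikit-learn 1.9.0 for neighbours and pandas 2.3.3 under Python 3.11.15, and matplotlib 3.10.9 drew the plots.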

Additional observations from a re-analysis of the deposited data

Results flagged for a closer look

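Of the 33 genes named between the libraries, 12 differed in opposite directions in members and in other cells. Their DKO_Skp2het to DKO ratio lay above 1 in members and below 1 in other cells, or the reverse, beyond counting error in both. The difference between the cell kinds was not tested. The 33 included the rule genes and genes picked because their difference between libraries was farthest from that in other cells. Opposite directions were thus partly built into the choice, and the share over all genes is not given here. The rule genes Ebf1 (1.29 in members, 0.621 in other cells), Ebf3 (1.32 and 0.601), Zfp804a (1.91 and 0.890), Slc24a3 (1.64 and 0.743) and Ina (1.58 and 0.887) were higher in DKO_Skp2het members and lower in its other cells. These genes chose the members, whose median depth was 5103.5 UMIs in DKO and 3597 in DKO_Skp2het, and the part of depth was not tested. With other handling of depth 2 of them turned. Ebf1 in members turned at the DKO minimum depth, and Ebf3 was at 0.962 (0.801 to 1.16) with the rule after thinning. Zfp804a, Slc24a3 and Ina turned in neither setting. Snhg11 (3.37 and 0.606), which the rule limits, Cnga1, the rod channel gene (2.62 and 0.929), and Nap1l5 (2.77 and 0.783) went the same way.

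The other 4 were lower in DKO_Skp2het members and higher in its other cells. They were Hes1 (0.391 and 1.09), Serpinh1, a chaperone of collagen (0.413 and 1.10), Dapl1 (0.523 and 1.68) and Cdkn1c (0.624 and 1.20). The nearest populations did not all go with the other cells: on the log2 scale Hes1 differed by -0.95 in Igfbpl1 Nhlh2 cells and -0.19 in inhibitory cells, Serpinh1 by -0.61 and -0.36, Cdkn1c by -0.17 and 0.22, and Dapl1 by 0.38 and 0.69. Without the member with most Hes1 UMIs in each library its ratio was 0.339, and without the corresponding Cnga1 cells that of Cnga1 was 2.01.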

How the results depend on the processing

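The share of members in DKO_Skp2het relative to DKO turned from 0.750 to 1.12 with the rule applied after thinning and to 1.10 with exclusion at 2 inhibitory genes, and was 0.988 for members with 5 or more of 15 neighbours members. The proliferation-positive ratio of members was 0.366 without high mitochondrial shares and scored doublets, 0.778 at the DKO minimum depth (other cells 0.907) and 0.297 with the rule after thinning. Genes past 2-fold against other cells numbered 52 higher and 62 lower with a pseudocount of 20, 271 and 375 with the rule after thinning and 296 and 455 with 5 or more member neighbours. Higher and lower genes between libraries numbered 200 and 326 with the limit on mitochondrial shares and the removal of scored doublets together, 112 and 84 at the DKO minimum depth, 76 and 66 with 4 or more rule genes, 99 and 81 without Ina, 59 and 60 with the rule after thinning, 77 and 109 with a pseudocount of 20, 334 and 352 with a filter of 50 UMIs, 900 and 714 without a filter, 49 and 71 with thinned counts, 60 and 57 in members with no core UMI, and 47 and 49 with 5 or more member neighbours. Smaller sets have fewer genes at 100 UMIs, so part of the fall in counts is by construction.

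Directions of genes and lists whose main value lay beyond counting error, or past 0.2 for a list's median, turned as follows. At the DKO minimum depth Ebf1 was at -0.10. With the rule after thinning Ebf3 was at -0.056, Cnga1 at -1.13, Pkib at 0.32, Skp2 at 0.54 and the rod list at -0.11. In members with no core UMI Lrfn5 was at -0.074, Pkib at 1.18, Foxn4 at 0.46, Fabp7 at 0.085, Otx2 at 0.18, Skp2 at 0.35, the inhibitory list at -0.084 and the cytoskeleton list at -0.024. Foxn4 stood at 0 and 1.87 CPM in these members, and the intervals of the Otx2 and Skp2 ratios there included 1. With thinned counts the rod list was at -0.0039. With 4 or more rule genes the inhibitory list was at -0.11 and the bipolar list at -0.63, and without Ina the bipolar list was at -0.40 and the other amacrine list at -0.13. With 5 or more member neighbours the inhibitory, ganglion and bipolar lists were at -0.18, -0.12 and -0.019. Lists closer to 0 turned too, such as immature neuron factors, from 0.12 to -0.18 in members with no core UMI and -0.11 with the rule after thinning, and photoreceptor precursor genes, from -0.09 to 0.34 in members with no core UMI. The causes were not tested. For the 30 genes named against other cells none of 210 alternative values turned, and 165 lay within 1.5-fold of the main value, a fixed limit. The neighbour subset, leaving out the cell with most UMIs, and, for the comparison with other cells, the rule after thinning and the removal of doublets were added after seeing the data. No paired analysis was possible because the labels give no replicate numbers and each genotype has 1 library, and no library could be left out. Depth limits the detection of genes at 1 or 2 UMIs per cell.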
